A study of Mus musculus with 12 samples.

Results

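Macrophages that had repopulated the central nervous system (CNS) from transplanted wild-type (WT) bone marrow were compared with resident WT microglia, using 6 RNA-seq libraries (3 of each) out of 12 in the study. The comparison was defined by the libraries' labels, not by their values, but earlier results of these data were known. WT microglia were sorted from brain and spinal cord of Tgfbr2fl/fl mice, which carry floxed Tgfbr2 alleles and no Cre, 18 to 22 days after 3 daily tamoxifen injections of 5 mg. The macrophages descended from Tgfbr2fl/fl marrow given to irradiated Cx3cr1CreER/+ R26DTA/+ recipients, whose own microglia were ablated by tamoxifen 6 weeks after the transplant through a diphtheria toxin allele; they were sorted 18 to 22 days later. All mice were C57BL/6, all groups received tamoxifen, and both WT groups were gated as live Ly6C-negative, CD11b-positive, F4/80-low cells. Ages were not given in the sources used here. The remaining 6 libraries gave a second comparison of the same kind and entered the fit of all 12 libraries, where they helped to set the variance; they came from microglia of Cx3cr1CreER/+ Tgfbr2fl/fl mice and from macrophages of such marrow (KO groups), sorted as F4/80-high cells. Neither the WT microglia nor the WT donor marrow carried Cre. Bone marrow origin, irradiation, transplantation and residence in a CNS emptied of microglia all differ between the WT groups at once and cannot be told apart. Cells of 1 to 5 mice were pooled for a library, and the p-values therefore measure the spread between pools.

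Microglia are seeded by embryonic yolk sac progenitors and maintain themselves, and TGF-beta signalling and the transcription factor SALL1 are known to hold them in their homeostatic state. When the niche is emptied, progeny of bone marrow monocytes can settle in it and take on a microglia-like shape and surface phenotype. The comparison asks which parts of the microglial transcriptome such cells adopt and which they do not.

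WT microglia libraries held 3421859 to 5148733 reads in genes and WT macrophage libraries 3108410 to 5365722, with mitochondrial shares of 3.86 to 4.36% and 3.18 to 5.35%. Values are normalized counts (reads divided by a library's size factor), given by replicate or as mean ± SD (n = 3), and log2 differences are macrophages minus microglia ± SE, with adjusted p-values from limma. Replicates 1 and 2 of each group had high Xist and replicate 3 had high Ddx3y, so both groups had the same mix of pools by these X- and Y-linked genes. Pearson r across genes averaged 0.974 within WT microglia, 0.975 within WT macrophages and 0.844 (0.834 to 0.858) between them, over genes that are not independent replicates. S100a8 (1 read per group) of the neutrophil markers and Cd3e (1 and 2 reads) of the T cell markers were near 0. Summed mast cell markers were at most 2.58. Other marker sums were not near 0. In microglia and macrophages, neutrophil markers summed to 2414 to 2578 and 1105 to 1171, with only Csf3r tested, called lower. T and NK cell markers summed to 174 to 235 and 179 to 240, with 1 of 2 tested called higher. B cell markers summed to 1205 to 1304 and 948 to 987, with 2 of 3 tested called lower and 1 higher. Oligodendrocyte markers summed to 433 to 435 and 343 to 370. Erythroid and platelet markers summed to 80.7 to 290 and 128 to 161, with 1 of 5 tested called higher (Pf4) and 1 lower (Gp9). Summed neuronal markers were low but higher in macrophages (31.9 to 57.2, against 16.7 to 29.6), and summed astrocyte markers were lower (58.4 to 73.7, against 654 to 733), nearly all of it Slc1a3. The part of other cells in the results below was not tested beyond these levels. In bulk libraries, fewer cells with a transcript and less transcript per cell cannot be told apart.

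Of 12519 genes tested, 4930 (39.4%) differed at an adjusted p under 0.05, and for 53.9% of tested genes every library of 1 group lay above every library of the other. With the 6 WT libraries alone 5413 genes were called, and without KO macrophages replicate 1 in the fit 5815. Macrophages were higher for 2398 genes (19.2%) and lower for 2532 (20.2%), and the median difference over all tested genes was -0.0027. Among the called genes, 525 were at least 4-fold higher in macrophages and 159 at least 16-fold higher. In the other direction, 438 were at least 4-fold lower and 142 at least 16-fold lower. The percentages are the background for every count below: a gene list with about 1 member in 5 called in each direction does not stand apart from the transcriptome.

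**Figure D1:**
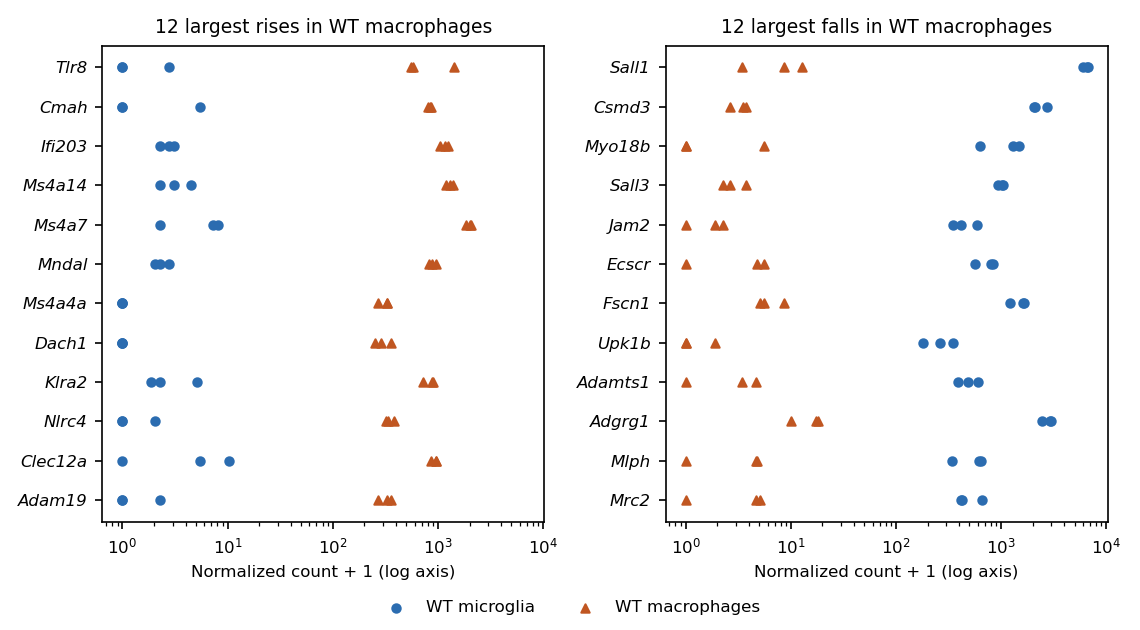
Normalized count + 1 on a log axis in each of the 6 WT libraries (circles, microglia; triangles, macrophages) for the 12 largest rises and the 12 largest falls, ordered by log2 difference. All 24 genes were chosen for their separation: the rises lie at 10 or fewer counts in every microglia library, and the falls lie under 20 in every macrophage library.

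Genes of the gate (Itgam, Adgre1 and Ly6c2) and other leukocyte and macrophage genes gave a mixed picture. Ptprc, the pan-leukocyte CD45 gene, stood at 3325, 3530 and 3823 in microglia and at 6259, 5755 and 5820 in macrophages (log2 0.74 ± 0.10, adjusted p = 2.61e-05). Itgam, which encodes CD11b, was at 7834, 7699 and 6838 against 3044, 2655 and 3291 (log2 -1.32 ± 0.22, adjusted p = 0.000231). Every macrophage library was therefore above every microglia library for Ptprc and below every one for Itgam. Adgre1 (F4/80) stood at 1575, 1286 and 1367 in microglia and at 2559, 2402 and 2835 in macrophages, a 1.84-fold higher level although both groups had been gated as F4/80-low. Ly6c2, excluded by the gate, had 0 reads in all 6 libraries. Csf1r, the receptor on which both cell types depend for survival, fell from 28448 ± 2225 to 13398 ± 662, whereas the macrophage-lineage genes Aif1 and Cd68 overlapped between the groups (log2 -0.12 and -0.13).

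Microglial identity genes were retained to very different degrees. A list of 40 homeostatic microglia genes had 37 members called lower in macrophages and 0 called higher, with a median of -1.84. The macrophage mean was 50 to 100% of the microglial mean for 8 of them, 10 to 50% for 19, 1 to 10% for 5 and under 1% for 8. Lists here were drawn up from general knowledge with earlier results of these data known, so the counts describe the lists and are no independent support for their direction.

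Sall1, the transcription factor gene most closely tied to microglial identity (GRCm38 chromosome 8, 89027235 to 89044162, minus strand), stood at 6490, 6650 and 5941 in microglia and at 11.8, 7.63 and 2.47 in macrophages. All 3 macrophage libraries were far below the microglial range, at 0.115% of its mean (log2 -9.77 ± 0.39, adjusted p = 3.38e-11). Its paralogue Sall3 stood at 1050, 1010 and 938 in microglia and at 2.73, 1.27 and 1.65 in macrophages. The other genes under 1% were Upk1b, Ecscr, Adgrg1, Sparc, Slc2a5 and Nav3. Sparc, a secreted matrix glycoprotein, went from 8904 ± 1150 to 54.3 ± 17.6, Adgrg1, the adhesion receptor GPR56, from 2783 ± 312 to 14.3 ± 4.55, and Slc2a5, a fructose transporter, from 1576 ± 63.4 to 14.4 ± 10.1. Upk1b was left with 1 read in the 3 macrophage libraries against 744 in microglia (ratio 871, exact 95% counting interval 156 to 34460).

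Other genes commonly used to mark microglia were lower in macrophages but far from lost. P2ry12, the purinergic receptor of process extension (chromosome 3, 59216272 to 59262871, minus strand), stood at 14162, 12852 and 9942 in microglia and at 1280, 1327 and 1453 in macrophages, 11% of the microglial level (log2 -3.17 ± 0.12, adjusted p = 1.31e-11). Tmem119, a surface protein (chromosome 5, 113793729 to 113800516, minus strand), was at 6265, 5734 and 5043 against 1629, 1540 and 1797, or 29.1%. The groups did not overlap for either gene. Cx3cr1, the fractalkine receptor, kept 41.3%, Olfml3 31%, Gpr34 26.1%, Siglech 22.1% and Cst3 17.7%. By library, Sall1 stood at 0.186, 0.12 and 0.0388% of the microglial mean, while Tmem119 stood at 28.7, 27.1 and 31.6%.

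At the upper end, 3 list members did not pass the test. Fcrls, an Fc receptor-like scavenger receptor used as a microglial marker, stood at 6999, 6969 and 4079 in microglia and at 5667, 5630 and 5806 in macrophages (log2 -0.03, 95% interval -0.38 to 0.31, adjusted p = 0.889). Its direction depended on the processing: it was called higher at log2 0.42 under quantile normalization, and called lower at log2 -0.29 without WT microglia replicate 3. Tgfbr1, the type I TGF-beta receptor, was at 10242 ± 949 and 8605 ± 529 (adjusted p = 0.149), and P2ry6, a phagocytosis-linked purinergic receptor, was at 605 ± 6.34 and 493 ± 24 (adjusted p = 0.0756). Without KO macrophages replicate 1 in the limma fit, both were called lower, Tgfbr1 at log2 -0.25 (adjusted p = 0.0122) and P2ry6 at log2 -0.30 (adjusted p = 0.00207), and P2ry6 was also called with the 6 WT libraries alone (adjusted p = 0.00615). Trem2, the lipid-sensing receptor, reached 78.4% (adjusted p = 0.0233), a call lost under quantile normalization (log2 -0.16) and without WT macrophages replicate 1 or 3 or WT microglia replicate 1 or 2. The complement gene C1qa reached 63.1% of the microglial level.

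**Figure D2:**
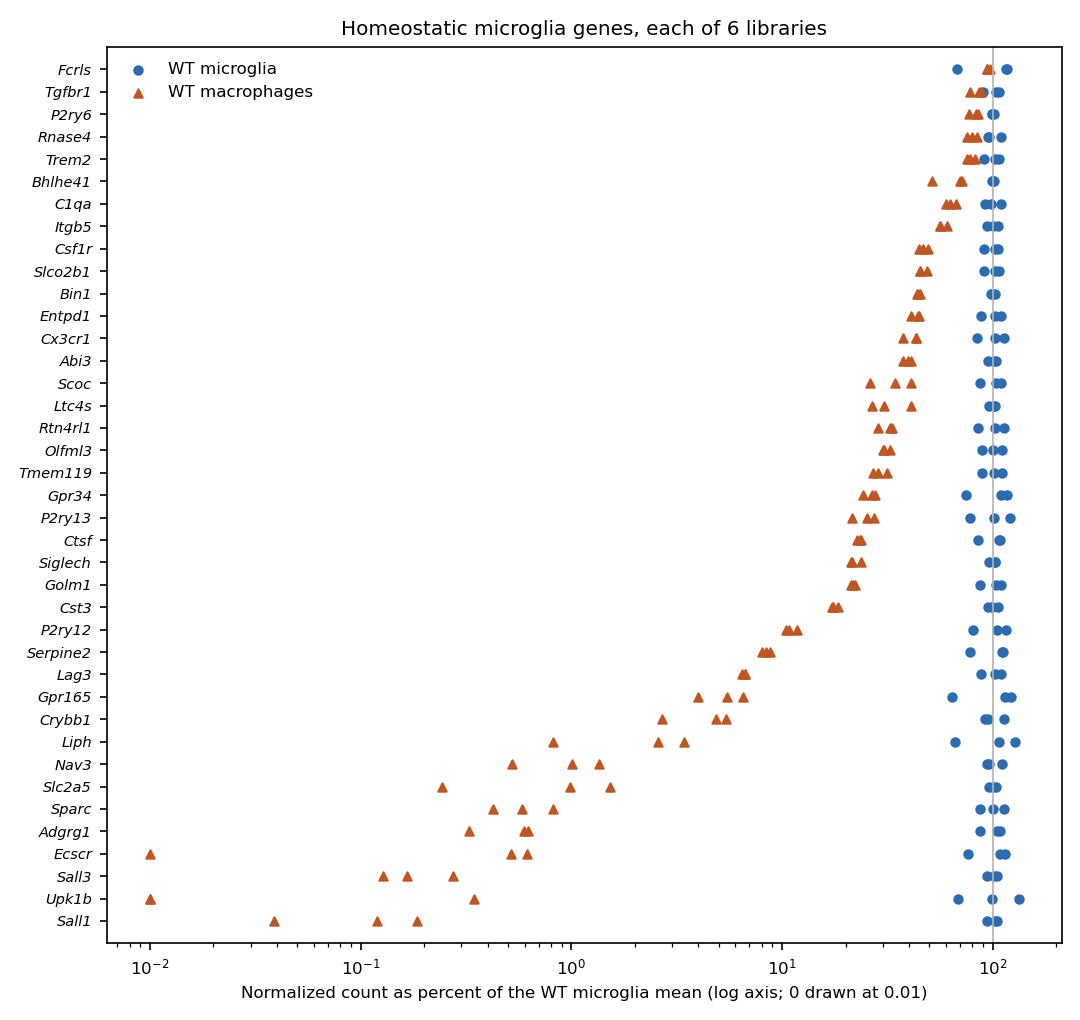
Normalized counts of 39 of the 40 homeostatic microglia genes in each of 6 libraries, as a percent of the WT microglia mean (log axis; circles, WT microglia; triangles, WT macrophages; 0 drawn at 0.01). Macrophage levels run from 0.115% for Sall1 to 94.8% for Fcrls.

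Genes known from bone marrow-derived CNS macrophages were high in the macrophages. Of 33 tested members of that list, 31 were higher, 1 was lower and 1 was not called, with a median of 4.05. Apoe, the lipid carrier apolipoprotein E (chromosome 7, 19696109 to 19699188, minus strand), stood at 1733, 1232 and 1575 in microglia and at 128224, 139095 and 122195 in macrophages, an 85.8-fold rise (log2 6.43 ± 0.15, adjusted p = 6.55e-14). All 3 macrophage libraries were far above the microglial range. Lyz2, the myeloid lysozyme, rose from 237 ± 40.1 to 4707 ± 292, Cybb, the catalytic NADPH oxidase subunit, from 37.8 ± 19.4 to 4149 ± 334, and Axl, a receptor for dying cells, 34.2-fold to 4015 ± 350. Lpl, a lipoprotein lipase, was the 1 member that fell, from 132 ± 34.7 to 68.9 ± 12.7, and Pilra did not differ beyond its spread (log2 -0.04).

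The Ms4a genes, tetraspan surface proteins clustered on chromosome 19, all moved the same way: 7 of 7 tested members were higher in macrophages, with a median of 3.85. Ms4a7 (11321039 to 11336146, minus strand) stood at 7.05, 1.29 and 6.21 in microglia and at 2005, 1853 and 2044 in macrophages (log2 8.59 ± 0.31, adjusted p = 1.35e-11). Ms4a14 (11301249 to 11314454, minus strand) stood at 3.53, 1.29 and 2.07 against 1393, 1198 and 1305. Ms4a4a (11375523 to 11392790, plus strand) had 0 reads in microglia and stood at 324, 328 and 267 in macrophages, at least 294-fold higher when microglia are set to a floor of 3 reads over the group. These genes separated the groups without any overlap. Within the family the size varied widely, since Ms4a6b rose from 248 ± 36.3 to 1124 ± 105 and Ms4a6d from 186 ± 14.6 to 278 ± 31.5.

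The other large rises included sensors and surface receptors of innate immunity. Tlr8, an endosomal RNA sensor, had 1.76, 0 and 0 in microglia and 578, 559 and 1412 in macrophages, with 2 reads against 2791 (ratio 1447, exact 95% counting interval 400 to 11950). Nlrc4, an inflammasome component, had 1 read in microglia and 1078 in macrophages (ratio 1001, interval 179 to 39573). Clec12a, an inhibitory C-type lectin of marrow-derived cells, stood at 4.41, 0 and 9.31 against 853, 965 and 969. Klra2, a Ly49-type lectin, was at 2.1 ± 1.78 and 831 ± 95.9, and Cmah, which hydroxylates sialic acid, was at 1.47 ± 2.54 and 838 ± 22.8. Dach1, a transcriptional regulator, had 0 reads in microglia and 299 ± 53.3 counts in macrophages, at least 287-fold higher. Adam19, a membrane protease, stood at 0, 1.29 and 0 against 269, 328 and 354 (1 read against 983, ratio 738, interval 132 to 29165). The Ifi200 genes Ifi203 (1.71 ± 0.394 to 1161 ± 102) and Mndal (1.36 ± 0.369 to 885 ± 71.7) lie on 1 strand of chromosome 1, where Mndal (173849126 to 173942491) spans most of Ifi203 (173920407 to 173942672), so their reads cannot be told apart with certainty. Klra2 belongs to a family of very similar copies, and its level is uncertain for the same reason.

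The largest falls beside Sall1 and Sall3 were of Csmd3, Myo18b, Jam2, Ecscr, Fscn1, Upk1b, Adamts1, Adgrg1, Mlph and Mrc2. Csmd3, a large membrane protein of the complement-control type, stood at 2035, 2088 and 2728 in microglia and at 2.73, 2.54 and 1.65 in macrophages. Fscn1, an actin-bundling protein, stood at 1619, 1656 and 1219 against 4.55, 7.63 and 4.12. Jam2, a junctional adhesion molecule, had 1326 reads against 2 (ratio 620, interval 171 to 5124), and Adamts1, a secreted protease, from 489 ± 105 to 2.04 ± 1.86. The rule that chose these genes required that the groups do not overlap, so their separation is no further result.

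A stricter view asked which genes were present in 1 group and all but absent from the other, with a mean of at least 100 in 1 group and under 10 in each of the 3 libraries of the other. By that rule 49 genes were present in macrophages and 56 in microglia. In macrophages 47 of the 49 reached 10 in every library. The exceptions, Ppp1r3c (0, 0 and 7278) and Syt7 (0, 2.54 and 528), were high in WT macrophages replicate 3 alone; Ppp1r3c had an adjusted p of 0.279 and Syt7 was not tested. All 56 microglial genes reached 10 in every microglia library. Beside genes already named, the macrophage set held Runx3, Cd93, Cxcr4, Cd36, Ahr and Jag1, and the microglial set held Bmpr1a, Kcnma1, Cacna1a, Prox1, Siglecf and Liph.

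**Figure D3:**
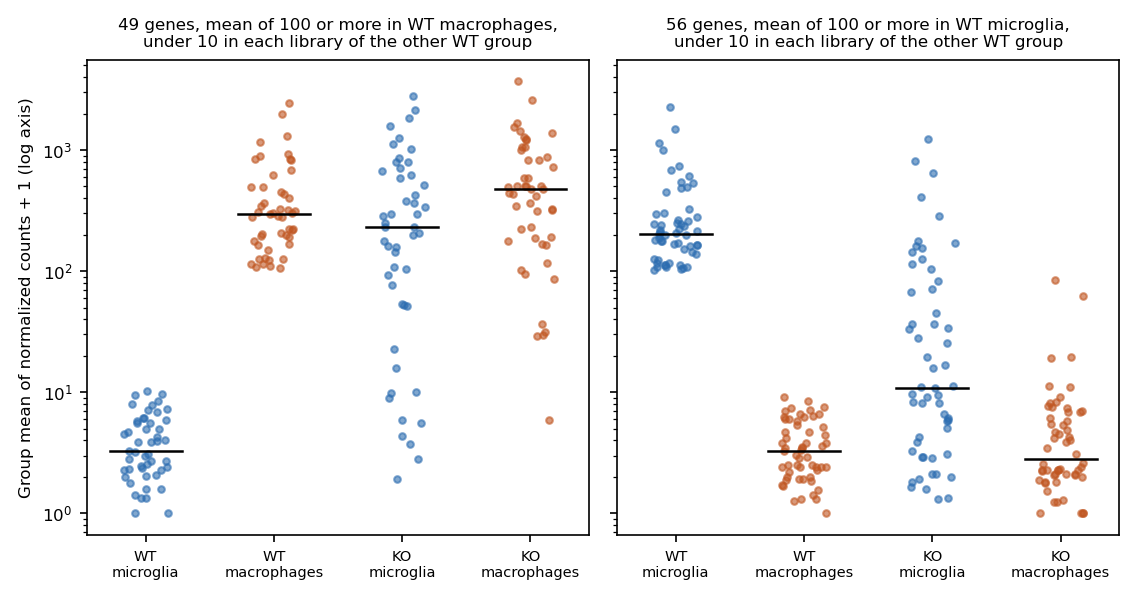
Group means of normalized counts + 1 on a log axis, in all 4 groups, for the 49 genes present in WT macrophages (left) and the 56 present in WT microglia (right); each point is a gene and each bar the median, drawn + 1. The WT groups differ by the rule, and the KO groups were not used by it. The medians in KO microglia and KO macrophages were 230 and 474 for the first set and 9.91 and 1.83 for the second.

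The KO groups shared no library with the WT comparison, though they were gated as F4/80-high cells. Of the 49 genes present in WT macrophages, 33 averaged at least 100 in KO microglia and 42 in KO macrophages; without Ppp1r3c and Syt7 these counts were 33 and 41 of 47. Runx2, Dach1, Stard13, Fam110b and Zfp599 were under 10 in every KO microglia library, and these 5 were the ones that remained without the pair of exceptions. Of the 56 genes present in WT microglia, 13 averaged at least 100 in KO microglia and 0 in KO macrophages, and 47 were under 10 in every KO macrophage library. Most of the macrophage set was therefore also present in KO microglia, and most of the microglial set was near 0 in KO macrophages. Bmpr1a and Cacna1a were examples still present in KO microglia, at 282 and 810, and Kcnma1 and Siglecf were not, at 5.66 and 2.89.

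Over all genes, 1314 (10.5%) differed between KO macrophages and KO microglia, 682 higher in macrophages (5.45%) and 632 lower (5.05%). Of the 525 genes at least 4-fold higher in WT macrophages, 196 were called higher in KO macrophages and 13 were called lower there. Of the 438 at least 4-fold lower in WT macrophages, 178 were called lower in KO macrophages and 11 were called higher. The difference between the WT and KO comparisons was itself called for 3235 genes (25.8% of those tested), including 388 of the 525 and 257 of the 438. The WT libraries that chose the 525 and the 438 genes also enter that difference, so those last counts are a description.

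Transcription factors of macrophage identity split by factor. Of 37 tested, 9 were higher and 15 lower in macrophages (median -0.29). Runx3 stood at 5.29, 1.29 and 2.07 in microglia and at 527, 520 and 432 in macrophages (log2 7.12 ± 0.40, adjusted p = 2.1e-09), and its relative Runx2 rose from 8.57 ± 1.01 to 122 ± 6.79. Runx1, the third member of that family and a regulator of haematopoiesis, overlapped between the groups at 1516 ± 78.8 and 1566 ± 84.8 (log2 0.05, 95% interval -0.18 to 0.28). Spi1 (PU.1), the master factor of the myeloid lineage, kept 75.8% of the microglial level. Irf8 kept 86.3% (adjusted p = 0.0273), a call lost under quantile normalization (log2 -0.06) and without WT macrophages replicate 2 or 3 or WT microglia replicate 1 or 2. Ets1 fell to 28.7%. Zeb2 was called higher at log2 0.40 ± 0.14 (adjusted p = 0.0361), a call lost without WT macrophages replicate 1 or 3 or WT microglia replicate 1.

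Genes of stem cells and definitive haematopoiesis were few but divided. Only 5 of 15 listed were tested. Hoxb4, a homeobox gene of adult haematopoietic progenitors, stood at 10.6, 9.02 and 12.4 in microglia and at 92.8, 118 and 104 in macrophages (log2 3.19 ± 0.27, adjusted p = 2.05e-07). It was also higher in KO macrophages than in KO microglia (53.4 against 6.4, log2 2.86, adjusted p = 5.03e-06). Cd93 rose from 1.57 ± 1.39 to 493 ± 35.2, and Flt3 from 4.19 ± 0.871 to 22.8 ± 4.51. Cd34 and Meis1, also named for progenitors, were higher in microglia, at 800 ± 123 against 135 ± 21.8 and at 72.5 ± 25.1 against 15.3 ± 5.72.

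TGF-beta binds a pair of receptor types that activate SMAD transcription factors, and the floxed gene of the series encodes the type II receptor. Tgfbr2, intact in both WT groups, stood at 3172, 3026 and 2495 in microglia and at 3427, 2997 and 3486 in macrophages; the ranges overlapped (log2 0.19, 95% interval -0.02 to 0.41, adjusted p = 0.148), though quantile normalization called it higher at log2 0.46. Of 37 tested members of the list, 9 were higher and 16 lower in macrophages (median -0.25). Bmpr1a, a type I BMP receptor (chromosome 14, 34410734 to 34503341, minus strand), stood at 219, 273 and 249 in microglia and at 0.91, 1.27 and 0.823 in macrophages, with 702 reads against 3 (ratio 247, exact 95% counting interval 84.2 to 1201). The same separation by origin was present in the KO groups, at 282 against 1.06. The coreceptor Eng fell to 11.2%, the signal transducer Smad3 to 39.7%, the feedback inhibitor Smad7 to 44.3% and the ligand Tgfb1 to 49% of the microglial level. Itgb8, whose integrin activates latent TGF-beta, rose from 1.95 ± 1.37 to 84 ± 19.3, Ltbp3, a latent-complex protein, from 18.6 ± 1.43 to 124 ± 17.3, and Acvrl1 from 85.5 ± 20.7 to 310 ± 15.4. Skil, a target that feeds back on SMADs, did not differ beyond its spread (log2 0.05, interval -0.39 to 0.49).

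**Figure D4:**
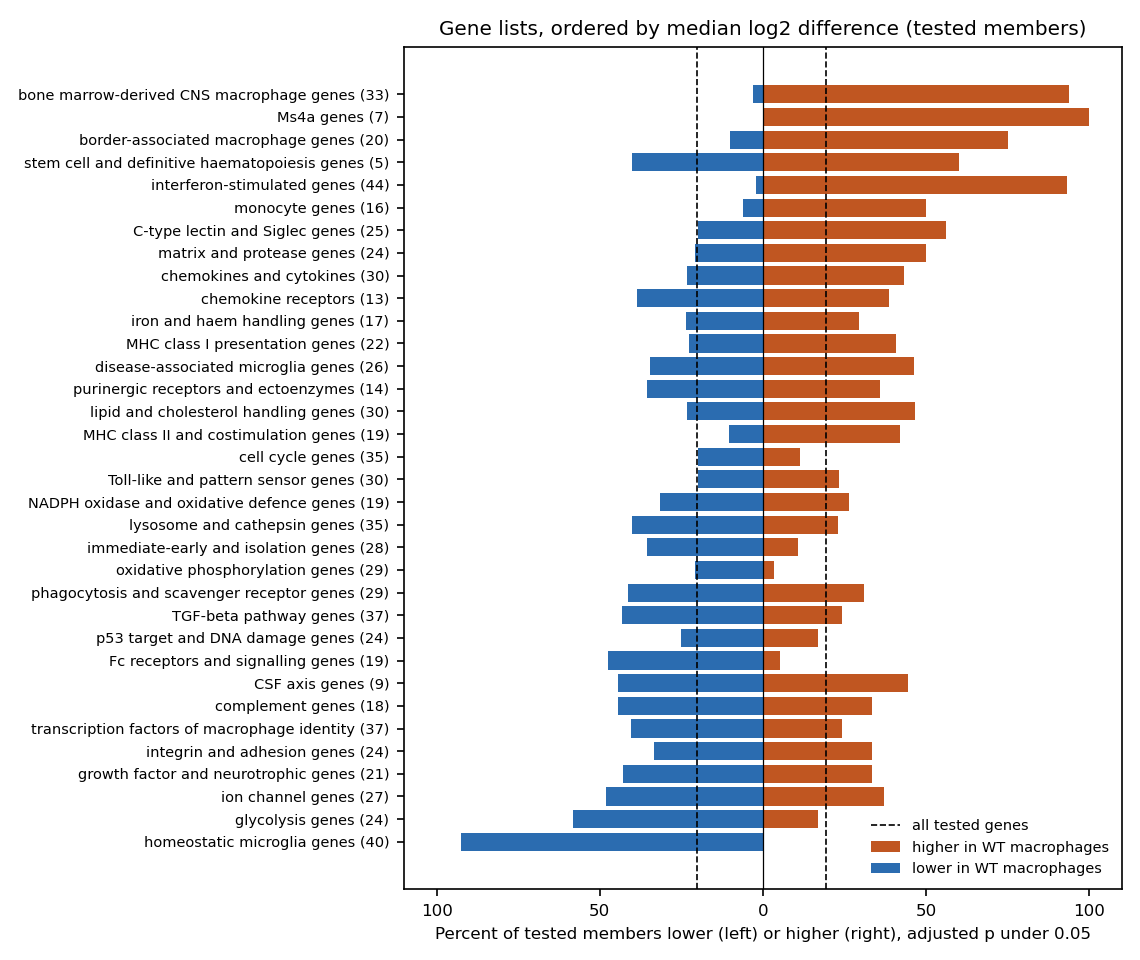
Percent of tested members of each gene list called higher (right) or lower (left) in WT macrophages, with the number tested in brackets; lists are ordered by median log2 difference and dashed lines mark 19.2% and 20.2% of all tested genes. Homeostatic genes are lower in 92.5% of members, and bone marrow-derived macrophage genes are higher in 93.9%.

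Interferon-stimulated genes, which cells induce through STAT and IRF factors after type I interferon, were almost uniformly higher in macrophages. Of 44 tested members, 41 were higher and 1 was lower, with a median of 1.64 against -0.0027 for all genes. The promoters of 4 of these genes are shown first, because a short motif of the interferon response lies in them. GAAANNGAA, on either strand (TTCNNTTTC on the other), is the core of the interferon-stimulated response element. Among tested genes with a RefSeq promoter of 300 bases (250 before the start and 50 after), it was found in 22 of 33 listed interferon-stimulated genes (66.7%) and in 838 of 9030 genes (9.28%). It was found in 17.1% of the genes at least 4-fold higher in macrophages that were not on the list, and in 9.84% of those at least 4-fold lower. A gene counted if any of its starts had a match. Listed genes were chosen as known interferon-stimulated genes, so their share is a description. Of 19 listed genes called higher with 1 start and a macrophage mean of at least 50, 9 had a match in the 250 bases before it. A match is a description of these letters, not a measured binding site. The windows are the 250 bases before the start, read 5′ to 3′ on the gene's strand of GRCm38.p6 from RefSeq, with matches in capitals (overlapping matches run together), for listed genes with 1 start, a match, and the largest rises.
Ifi207, chr1:173741810-173742059, minus strand: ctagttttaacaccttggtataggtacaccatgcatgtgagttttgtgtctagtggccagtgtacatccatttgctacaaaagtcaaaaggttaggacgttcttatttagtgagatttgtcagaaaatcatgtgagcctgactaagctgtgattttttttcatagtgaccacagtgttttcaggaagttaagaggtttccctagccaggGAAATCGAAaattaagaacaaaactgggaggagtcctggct
Ifi211, chr1:173913047-173913296, minus strand: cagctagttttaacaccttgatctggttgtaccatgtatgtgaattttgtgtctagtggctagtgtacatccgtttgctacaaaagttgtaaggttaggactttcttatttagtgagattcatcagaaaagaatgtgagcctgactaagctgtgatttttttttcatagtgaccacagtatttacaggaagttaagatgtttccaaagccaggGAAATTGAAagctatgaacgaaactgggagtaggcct
Slfn5, chr11:82951852-82952101, plus strand: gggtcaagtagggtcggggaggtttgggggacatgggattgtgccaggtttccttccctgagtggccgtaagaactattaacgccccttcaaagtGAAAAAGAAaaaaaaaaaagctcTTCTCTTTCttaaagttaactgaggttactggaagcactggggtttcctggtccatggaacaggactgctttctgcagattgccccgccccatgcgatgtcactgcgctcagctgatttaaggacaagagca
Bst2, chr8:71537473-71537722, minus strand: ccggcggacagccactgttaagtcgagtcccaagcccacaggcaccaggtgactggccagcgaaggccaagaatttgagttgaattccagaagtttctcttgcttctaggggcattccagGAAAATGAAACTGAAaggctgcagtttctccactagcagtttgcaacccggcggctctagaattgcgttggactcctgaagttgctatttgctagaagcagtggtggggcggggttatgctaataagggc

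In the promoters of Ifi207 and Ifi211, neighbouring members of the Ifi200 family, the match begins 41 and 37 bases before the start. Ifi207, a DNA-sensor relative, stood at 15, 20.6 and 38.3 in microglia and at 1355, 1328 and 1381 in macrophages (log2 5.83 ± 0.22, adjusted p = 2.13e-11). Ifi211 rose from 2.45 ± 2.37 to 55.6 ± 3.33. Its start lies within the span of Mndal given above, so reads of Ifi211 and Mndal may be mixed. Slfn5, a Schlafen protein with matches 155 and 132 bases before its start, rose from 50.6 ± 14 to 524 ± 79.9. Bst2, the virus-tethering protein tetherin, with overlapping matches from 130 and 124 bases before its start, stood at 52.9, 51.5 and 81.8 in microglia and at 401, 417 and 444 in macrophages (log2 2.77 ± 0.15, adjusted p = 1.15e-09).

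Elsewhere on the list, Oas2, a sensor of double-stranded RNA, stood at 10.6, 6.44 and 24.8 in microglia and at 660, 485 and 640 in macrophages. Ifi44 stood at 0, 1.29 and 10.3 against 139, 80.1 and 156, and Oasl1 at 0, 1.29 and 7.24 against 50.1, 45.8 and 78.2. WT microglia replicate 3 was the highest microglia library for each of these 3 genes and still below every macrophage library. The transcription factors of the response rose less: Irf7 from 36.7 ± 23 to 145 ± 20.4 and Irf9 by log2 0.37 ± 0.11 (adjusted p = 0.0164), a call lost without WT macrophages replicate 1 or WT microglia replicate 2. Ly6e was lower in macrophages (log2 -0.73 ± 0.16), and Ddx58 and Gbp2 overlapped between the groups (Ddx58 was called higher, at log2 0.46, without WT macrophages replicate 2). In the KO groups, 0 of the 44 were called higher in macrophages by limma and 4 were called lower, and the difference between the WT and KO comparisons was called for 41. Ifi207 averaged 2698 in KO microglia and 2447 in KO macrophages, above both WT groups.

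**Figure D5:**
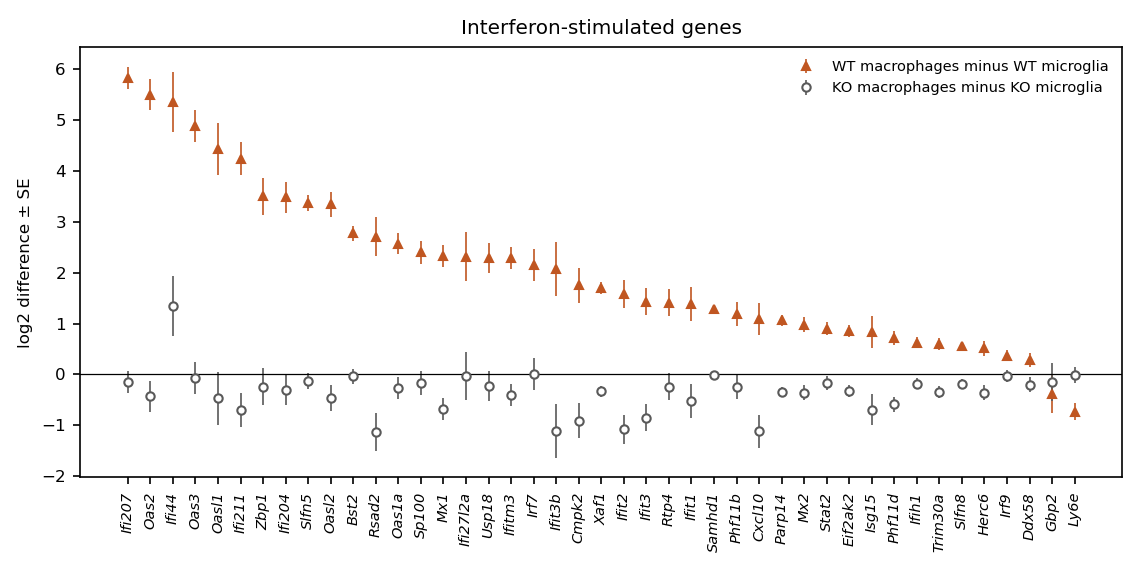
Log2 difference ± SE between macrophages and microglia for 43 of the 44 interferon-stimulated genes, in the WT groups (triangles) and in the KO groups (open circles), ordered by the WT value. WT values run from 5.83 for Ifi207 to -0.73 for Ly6e.

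Several antigen presentation genes were higher in macrophages, in class II and class I. The class II genes H2-Aa, H2-Eb1, H2-Ab1 and the invariant chain Cd74 rose together, H2-Aa from 33.5, 34.8 and 35.2 to 1470, 1276 and 1207 and Cd74 from 193, 170 and 215 to 4862, 4313 and 4407. Dendritic cell markers were higher for 5 of 10 and lower for 1 (3 and 1 with voom weights), and their part in the rise of class II genes was not tested. Over the list of class II and costimulation genes, 8 of 19 were higher (42.1%, against 19.2% of all tested genes) and 2 lower (median 0.08). The higher members also included Ciita, H2-DMa, H2-DMb2 and Cd40. Cd86, a costimulatory ligand, overlapped between the groups (log2 -0.04, interval -0.21 to 0.13), and H2-Oa, a modulator of class II loading, fell from 73.5 ± 9.33 to 10.1 ± 3.84. H2-Aa was higher in KO macrophages too (7507 against 1193 in KO microglia). Among class I genes, 9 of 22 were higher and 5 lower. The classical genes H2-K1 and H2-D1 rose 1.85-fold and 1.79-fold and the transactivator Nlrc5 5.67-fold, while their partner B2m stood at 3072 ± 178 and 3071 ± 129.

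Markers of border-associated macrophages, the macrophages of meninges and perivascular spaces, were higher for 15 of 20 tested members and lower for 2 (median 2.36). With voom weights 11 were higher. The count was 13 with a pseudocount of 10, quantile normalization, or without WT macrophages replicate 3 or WT microglia replicate 1. Mrc1, the mannose receptor CD206, stood at 96.9, 95.3 and 70.4 in microglia and at 4220, 3923 and 4923 in macrophages (log2 5.63 ± 0.13, adjusted p = 5.81e-14). Siglec1, a sialic acid-binding adhesion receptor, was at 22.9, 34.8 and 33.1 against 2428, 2205 and 2950. Pf4, a chemokine also listed as a platelet marker, rose from 1 read to 238 (ratio 179, exact 95% counting interval 31.7 to 7080). Other defining members were low in both WT groups: Lyve1 was not called, at 3 and 6 reads, while Cd163 (4.48 ± 4.18 and 14.3 ± 0.841) and Cbr2 (1 and 26 reads) were called higher in macrophages, calls that were lost with voom weights (adjusted p = 0.0749 and 0.122). The iron exporter Slc40a1 and the bridging ligand Gas6 fell, to 27.7% and 67.9%.

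Monocyte genes were higher for 8 of 16 tested members and lower for 1 (median 1.54). Itga4, the integrin subunit of vascular entry, stood at 29.1, 20.6 and 36.2 in microglia and at 2091, 2092 and 2118 in macrophages. Ccr2, the receptor by which monocytes leave the marrow, rose from 32.9 ± 11.7 to 181 ± 26.5 and Cd44 from 19.5 ± 2.95 to 108 ± 9.55. Plac8 and S100a4, genes of classical monocytes, were below the level needed for a test.

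Receptors for nucleotides, chemokines and complement changed in both directions. Purinergic genes had 5 of 14 higher and 5 lower: P2ry14 rose from 2 reads to 220 (ratio 110, exact 95% counting interval 30.2 to 918) and P2rx4 2.69-fold, while the adenosine receptor Adora3 fell to 3.86% and P2ry13 to 24.7%. Chemokine receptors had 5 of 13 in each direction. Cxcr4, which retains cells in the marrow, stood at 3.53, 3.87 and 3.1 in microglia and at 689, 726 and 650 in macrophages, and Ccr1 rose 7.97-fold. The C5a receptor C5ar1 fell to 39%, whereas the C3a receptor C3ar1 rose 1.63-fold. Complement genes had 6 of 18 higher and 8 lower, with C3 from 12.4 ± 10.3 to 146 ± 57.7. Only 4 complement genes were higher with voom weights, quantile normalization, or without WT macrophages replicate 1 or 2 or WT microglia replicate 1.

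Among chemokines and cytokines, 13 of 30 were higher and 7 lower (median 0.59). Without WT macrophages replicate 1 or 3 or WT microglia replicate 1, 9 were higher. Il1b stood at 14.1, 9.02 and 40.4 in microglia and at 427, 446 and 238 in macrophages (log2 4.28 ± 0.37, adjusted p = 2.62e-07), and Cxcl2, a neutrophil attractant, rose from 3.34 ± 1.71 to 55.8 ± 10.2. Il1a, the companion cytokine, fell to 55.9%, Ccl9 to 7.61% and the growth factor Csf1 to 16.7%. Tnf and Ccl3 overlapped between the groups. In the CSF axis, 4 of 9 genes were called in each direction. Immediate-early genes, which dissociation can induce, had 3 of 28 higher and 10 lower. These counts were unstable: without WT microglia replicate 3 they were 7 and 5, and 7 and 6 were higher without KO macrophages replicate 1 and WT macrophages replicate 3.

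Lectins stood above the background, with 14 of 25 C-type lectin and Siglec genes higher and 5 lower (median 1.10). Clec7a, the beta-glucan receptor dectin-1, rose from 61.5 ± 10.7 to 419 ± 17.8, and Siglecf fell from 115 ± 15.8 to 5.2 ± 2.42. Toll-like and sensor genes were close to it, with 7 of 30 higher and 6 lower (median 0.00): beside Tlr8, Tlr2 rose 2.48-fold and Tlr5 and Tlr3 fell to 24.4% and 33.3%. Fc receptor and signalling genes had 1 of 19 higher and 9 lower, but 2 and 5 under quantile normalization. Fcgr3 fell to 44.1%, Fcgr4 rose 2.08-fold, and the kinase gene Syk stood at 1568 ± 108 and 1592 ± 90.2.

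Receptors of debris uptake moved in both directions. Of 29 phagocytosis and scavenger genes, 9 were higher and 12 lower (median -0.24). Cd36, a fatty acid and lipoprotein receptor, went from 3.67 ± 2.71 to 205 ± 27.4, and the scavenger receptor Msr1 rose from 9.74 ± 3.02 to 433 ± 29.2. Itgb3 fell to 1.58%, the bridging protein gene Pros1 to 24.3% and Mertk, a receptor for dying cells, to 53%. Mertk belongs to the same kinase family as Axl, described above, which was higher. Of 30 genes of lipid and cholesterol handling, 14 were higher and 7 lower (median 0.12), with Pltp up 10.4-fold, the cholesterol exporter Abca1 up 2.05-fold and Lrp1 down to 51.2%.

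Genes of the disease-associated microglia programme, which microglia induce around damage, were higher for 12 of 26 and lower for 9 (median 0.19). Igf1, a growth factor, rose from 6.64 ± 3.24 to 272 ± 23, and Itgax from 58.9 ± 3.92 to 211 ± 21.6. Spp1 rose from 25.6 ± 21.1 to 76.4 ± 13.3, a call lost without WT microglia replicate 2. Ctsl and Cd9, of the same list, fell to 18.4% and 22.6%. Lysosome and cathepsin genes had 8 of 35 higher and 14 lower, or 10 and 9 under quantile normalization. Ctse stood at 6.95 ± 5.64 and 169 ± 38.2, and Ctsf fell to 23.3%. Ctsd (79.5%) and Ctss (72.4%) were called lower, but at log2 0.19 and 0.13 under quantile normalization their direction turned. Psap, a lysosomal lipid cofactor, stood at 7022 ± 383 and 6936 ± 611 (log2 -0.02), and the same normalization called it higher at log2 0.42.

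Adhesion genes had 8 of 24 in each direction (median -0.30), led by Itgal, an integrin subunit of leukocytes, from 6.09 ± 6.48 to 478 ± 47.5, and Vcam1, from 29.7 ± 11.7 to 728 ± 78. Pecam1, also an endothelial marker, fell from 179 ± 57.7 to 13.3 ± 5.75, and the endothelial marker Kdr from 57.3 ± 2.38 to 26.2 ± 7.62. Of 4 endothelial and mural markers tested, 3 were called lower and 1, Flt1, was called higher. The summed endothelial and mural markers stood at 194 to 308 in microglia and 86.4 to 96.5 in macrophages, and their part in the fall of Pecam1 was not tested. Matrix and protease genes had 12 of 24 higher and 5 lower (median 0.73).

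Growth factor genes had 7 of 21 higher and 9 lower. Gdf3 had 0 reads in microglia and 68.3, 91.5 and 64.2 counts in macrophages, at least 71.7-fold higher, and Hgf rose 9.04-fold, while Tgfa fell from 493 ± 31.9 to 13.8 ± 6.46. Of 27 ion channel genes, 10 were higher and 13 lower. Kcnma1, a calcium-activated potassium channel, stood at 196, 223 and 182 in microglia and at 2.73, 0 and 0 in macrophages (ratio 220, exact 95% counting interval 74.9 to 1070). Iron and haem genes had 5 of 17 higher and 4 lower; Cp, the ferroxidase ceruloplasmin, stood at 6.17, 9.02 and 21.7 against 1075, 1008 and 1353.

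Glycolysis genes were more often lower than higher, and oxidative phosphorylation genes were mostly not called. Of 24 glycolysis genes, 14 were lower and 4 higher (median -0.47), with Ldhb at 8.74% and Pdk1 at 33.7% of the microglial level and Gapdh at 183 ± 1.13 and 111 ± 6.4. Pfkp and the glucose transporter gene Slc2a3 rose 9.79-fold and 2.37-fold. Oxidative phosphorylation genes had 1 of 29 higher and 6 lower (median -0.21). NADPH oxidase and oxidative defence genes had 5 of 19 higher, Cybb among them, and 6 lower. Of the latter list, 3 were lower under quantile normalization or without WT macrophages replicate 1. Cell cycle genes had 4 of 35 higher and 7 lower, and the proliferation marker Mki67 overlapped at 172 ± 58.1 and 200 ± 31.3; 4 were lower without WT macrophages replicate 1 or 2 or WT microglia replicate 2, and 2 were higher without WT macrophages replicate 2. Genes of the p53 and DNA damage response, which irradiation can induce, had 4 of 24 higher and 6 lower (3 lower without WT macrophages replicate 2 or WT microglia replicate 2 or 3), and Cdkn1a stood at 40.1 ± 13.7 and 37.8 ± 10.5 (log2 -0.05, interval -0.85 to 0.74).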

How the data were processed

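RNA from sorted cells was sequenced after a stranded pico-input total RNA kit, with RNA integrity of 7.1 to 10, per the labels' protocols. The submitters' processing notes name the tools bcl2fastq, CASAVA and STAR and the build GRCm38. The sources used here do not give the counter, annotation or strand setting, so reads of overlapping or antisense genes may be mixed. The authors deposited log2 values for 25904 genes. Undoing the log gave whole multiples of 1 read per library for 100% of 310848 values (tolerance 0.01 reads), so the deposited unit is log2(count / size factor + 1) and the reads behind each value are known.

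Genes that reached 10 normalized counts in 3 or more of the 12 libraries were tested (12519 tested, 13385 not) with limma 3.58.1 in R 4.3.3 (mean-variance trend, not robust, 8 residual degrees of freedom) on these log2 values, with 1 mean for each of 4 groups and Benjamini-Hochberg adjustment at 0.05. Folds on this scale, with pseudocount 1, understate changes of low genes. Folds in the text are ratios of means. Intervals of read ratios and the floor of 3 reads cover counting error only. Alternatives were another filter or none, a pseudocount of 10, quantile normalization, median scaling, robust moderation, Ddx3y as a covariate, the 6 WT libraries alone, and leaving out each WT library or KO macrophages replicate 1; a voom fit of the recovered reads was added after seeing the data. Symbols are from GENCODE release M21 (25730 of 25904 matched) and promoters from RefSeq. The fit was tested on simulated data. Python 3.11.15, pandas 2.3.3, numpy 2.4.6, scipy 1.17.1 and matplotlib 3.10.9 were used.

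The comparison and gene lists were chosen with earlier results of these data known. Named genes are the sort, genotype and sex genes, the 12 largest rises and 12 largest falls (called, not overlapping, higher mean at least 100, no predicted or segment genes), up to 4 called members per list and direction (higher mean at least 50), up to 2 members of smallest difference (both means at least 100), the 6 with most counts per group, the 4 largest differences of either sign from the KO comparison, and 10 set microglia and macrophage genes. Nav3, Olfml3, Gpr34, Trem2, Pilra, Ppp1r3c, Syt7, Ahr, Jag1, Prox1, Liph, Stard13, Fam110b, Zfp599, Spi1, Irf8, Flt3, Tgfb1, Ifi211, Slfn5, Irf7, Gbp2, H2-D1, Ciita, H2-DMa, H2-DMb2, Cd40, Lyve1, Cd163, Cbr2, Plac8, S100a4, S100a8, Cd3e, Il1a, Mertk, Abca1, Gapdh, Mki67 and Cdkn1a were picked with their values in view. Some genes are not reported here. The windows shown follow the same rule of size.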

Additional observations from a re-analysis of the deposited data

Results flagged for a closer look

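The origin difference itself differed between genotypes for 3235 of 12519 tested genes (limma, WT comparison minus KO comparison). The KO groups differ from the WT groups in gate as well as genotype, and these cannot be told apart. The largest positive differences were Adam19 (9.25), Ms4a14 (8.92), Ms4a7 (8.71) and Ms4a4a (8.44), on the log2 scale. All 4 were high in WT macrophages and in both KO groups: Adam19 averaged 317 in WT macrophages, 1246 in KO microglia and 501 in KO macrophages, and Ms4a7 averaged 1968, 2811 and 2584. The largest negative differences were Csmd3 (-9.06), Ecscr (-8.64), Tmem119 (-8.26) and Jam2 (-7.75). Tmem119 averaged 2.17 in KO microglia and 306 in KO macrophages, so it was lower in macrophages than in microglia among WT cells and higher among KO cells (KO log2 6.48, adjusted p = 1.41e-09). Csmd3 averaged 5.15 and 5.86 in the KO groups and was high in WT microglia alone (2284). Ecscr and Jam2 were likewise near 0 in both KO groups.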

How the results depend on the processing

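No paired analysis was possible because the labels give no replicate numbers. Counts of genes higher and lower in macrophages stayed within 1.5 times the reported value in every alternative run. So did the count of genes whose origin difference differed between the WT and KO comparisons, lowest at 2332 with Ddx3y as a covariate. Leaving out 1 library gave 1925 to 2868 genes higher, 2095 to 2947 lower and 2643 to 3486 with a differing origin difference. The upper ends were those without KO macrophages replicate 1 (2193, 2371 and 3110 at most without a WT library). Leaving out a WT library gave 107 to 120 present in 1 group (105 reported). The count of genes present in 1 group depended on its threshold, at 195 with a mean of at least 50 and 62 with a mean of at least 200. Of 327 genes examined singly, 263 were called, and 238 of these kept direction and call in every one of 16 alternatives that tested them (322 of the 327 were tested with the filter of 50). Ctss and Ctsd reversed under quantile normalization, to 0.13 and 0.19; the cause was not tested. For the genes examined singly, calls named in the report that were lost without 1 library are given beside them. Ciita, H2-DMa, H2-DMb2 and Cd40 were not examined singly. Depth limits genes with 0 to 3 reads in a group, whose folds are bounds or wide intervals.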
